A study of Rattus norvegicus with 12 samples.

Results

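The small heat shock proteins examined here were the 7 heart and muscle genes Hspb1, Hspb2, Hspb3, Hspb6, Hspb7, Hspb8 and Cryab. They were chosen by their gene symbols in the platform annotation. No measured value entered that rule, but earlier results of these data were known when it was set. Each was read by 1 probe, so that the members were 7 of the 22523 probes on the array, 7 of the 10234 probes tested and 7 of the 7348 named genes among those. All 7 probes were detected, with a detection p under 0.05, on 12 of 12 arrays.

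Small heat shock proteins are chaperones that work without ATP. They share an alpha-crystallin domain, assemble into oligomers, and hold unfolding proteins in a soluble state until chaperones of the Hsp70 class can refold them or degradation takes over. In heart muscle they are abundant, and several bind desmin, actin, titin or filamin at the Z-disc and the intermediate filaments, structures that carry mechanical load. Many are controlled by phosphorylation, and part of the family is transcribed under heat shock factor 1.

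RNA from 12 hearts of the outbred Sprague-Dawley rat strain had been measured on Illumina bead arrays, 1 array per sample. The labels give 3 groups of 4 hearts, namely phasic systolic overload, an overload in the phase of contraction, phasic diastolic overload, an overload in the phase of filling, and a control with no loading at any time in the cardiac cycle. The series title names the left ventricle, but the labels give only heart as the tissue, and neither the age of the rats, the length of loading nor the device is given there. They also do not say that each array came from a separate animal, so the p-values below speak only of the scatter among the 12 samples, part of which may be technical. RNA came from whole tissue, in which fewer cells of a type and less RNA per cell cannot be told apart.

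The promoter windows of 3 members are shown because they hold matches to the heat shock element, the inverted repeat that heat shock factors bind. RefSeq promoter windows of the rat assembly GRCr8, running from 250 bases before to 50 bases after a start site, were at hand for 5 of the 7 members (Hspb1, Hspb3, Hspb6, Hspb7 and Hspb8). For 4 of them that site is the outer end of the annotated gene, while for Hspb8 it is chr12:45837308, which lies 1409 bases inside the annotated gene. They were searched on both strands for GAANNTTC and TTCNNGAA, the pairs of facing and of opposed units of that element, and for TATAAA, the TATA box. Each sequence reads 5′ to 3′ on the gene's own strand, with the matches in capitals.
Hspb1, GRCr8, chr12:26432252-26432551, minus strand: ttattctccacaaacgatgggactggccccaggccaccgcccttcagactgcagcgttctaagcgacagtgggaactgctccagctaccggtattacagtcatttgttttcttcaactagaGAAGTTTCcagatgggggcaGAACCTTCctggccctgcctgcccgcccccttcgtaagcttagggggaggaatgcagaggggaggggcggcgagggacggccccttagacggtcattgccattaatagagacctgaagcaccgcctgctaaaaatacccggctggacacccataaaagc
Hspb6, GRCr8, chr1:94934122-94934421, plus strand: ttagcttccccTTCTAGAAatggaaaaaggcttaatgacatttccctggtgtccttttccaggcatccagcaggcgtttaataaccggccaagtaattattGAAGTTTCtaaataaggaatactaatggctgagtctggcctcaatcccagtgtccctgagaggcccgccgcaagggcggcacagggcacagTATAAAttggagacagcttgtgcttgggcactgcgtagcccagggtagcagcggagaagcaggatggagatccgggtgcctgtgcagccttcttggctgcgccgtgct
Hspb8, GRCr8, chr12:45837058-45837357, plus strand: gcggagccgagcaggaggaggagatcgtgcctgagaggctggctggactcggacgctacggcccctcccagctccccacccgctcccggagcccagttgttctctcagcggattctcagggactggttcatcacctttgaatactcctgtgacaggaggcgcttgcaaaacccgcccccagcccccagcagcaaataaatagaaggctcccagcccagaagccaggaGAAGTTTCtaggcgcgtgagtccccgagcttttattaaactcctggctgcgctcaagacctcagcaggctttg

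The Hspb1 window held GAAGTTTC from 129 bases and GAACCTTC from 109 bases before the start site. The Hspb6 window held TTCTAGAA from 239 and GAAGTTTC from 149 bases before it, and the Hspb8 window held GAAGTTTC from 23 bases before it. The Hspb3 and Hspb7 windows held no match to either heat shock pattern. A TATAAA lay from 50, 58 and 41 bases before the start site in Hspb3, Hspb6 and Hspb7. Of 33469 RefSeq promoter windows of the same length, 8.59% held GAANNTTC, 8.77% TTCNNGAA, 15.9% at least one of the pair and 14.2% TATAAA. These matches describe the letters of the windows and are not measured binding sites.

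Hspb2 (chr8:59989640-59991215) and Cryab (chr8:59989885-59995532) are neighbours on chromosome 8 of GRCr8, with annotated intervals that overlap by 1331 bases. The other members lie apart from them, Hspb1 at chr12:26430640-26432301, Hspb8 on the same chromosome at chr12:45835899-45866449, Hspb3 at chr2:47028451-47029165, Hspb6 at chr1:94934372-94936516 and Hspb7 at chr5:159010759-159014245. Those coordinates are of the whole gene; the positions of the probes were not used here.

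The arrays were alike in depth, with 9249 to 9931 probes detected per array, and raw median intensities of 86.3 to 115.5, the highest in control 4. Control 1, control 2 and diastolic overload 1 had the lowest scores on the first principal component (23.1% of the variance), which cut across the groups. All levels below are normalized log2 intensities, after background correction and quantile normalization. Hspb6, Cryab and Hspb1 were among the brightest probes on the array. Raw intensities of Hspb6 were 77.1% to 97.1%, those of Cryab 78.3% to 90.6% and those of Hspb1 54.2% to 78.6% of the brightest probe of the same array, a range in which bead signals can be compressed.

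No small heat shock protein passed the test in either overload. In systolic overload against control, 0 of 7 members passed limma's moderated test at a Benjamini-Hochberg adjusted p of 0.05, as did 0 of all 10234 probes, or 0%. The smallest adjusted p among the members was 0.90, and 0.52 among all probes. At an unadjusted p under 0.05, limma called 0 of 7 members and 5.79% of all probes (593). The means were higher under systolic overload for 4 members and lower for 3, against 51.5% and 48.5% of all probes. The median log2 difference was 0.0084 over the members and 0.005 over all probes. The groups overlapped for all 7 members, while 3.50% of all probes had groups that did not overlap.

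In diastolic overload against control, limma likewise passed 0 of 7 members, against 0% of all probes, with a smallest adjusted p of 0.95 among the members and 0.34 among all probes. At an unadjusted p under 0.05, it called 0 of 7 members and 5.49% of all probes (562). Means were higher under diastolic overload for 4 members and lower for 3, against 49.2% and 50.8% of all probes, and the median difference was 0.04 over the members and −0.002 over all probes. Groups overlapped for all 7 members and failed to overlap for 2.78% of all probes. Both overloads share the same 4 control hearts, so that the 2 sets of differences are not independent of each other.

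A p that misses the threshold does not show that a gene did not differ, so the intervals of the differences were read as well. For all 7 members the 95% interval of the difference from control lay within 1.3-fold in either direction, in both overloads. That limit was chosen after the values were seen. The same held for 48.0% of all probes in systolic and 49.0% in diastolic overload. That share depended on the processing: without background correction, in the second deposited table or with an offset of 50 it was 76.1% to 84.0% in systolic and 77.3% to 85.2% in diastolic overload, and 7 of 7 members again lay within the limit. The widest interval, that of Hspb3, reached 1.29-fold in systolic and 1.27-fold in diastolic overload. With arrays scaled to their medians instead of quantile normalized, fewer members stayed within 1.3-fold, 3 under systolic (14.3% of all probes) and 2 under diastolic overload (12.2%), and the widest intervals, again of Hspb3, reached 1.59-fold and 1.58-fold. Leaving out control 3 also brought the count under systolic overload down to 4 (38.4% of all probes), and leaving out control 1, control 2 and diastolic overload 1 together brought the counts to 4 under systolic (28.2%) and 3 under diastolic overload (24.1%).

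**Figure D1:**
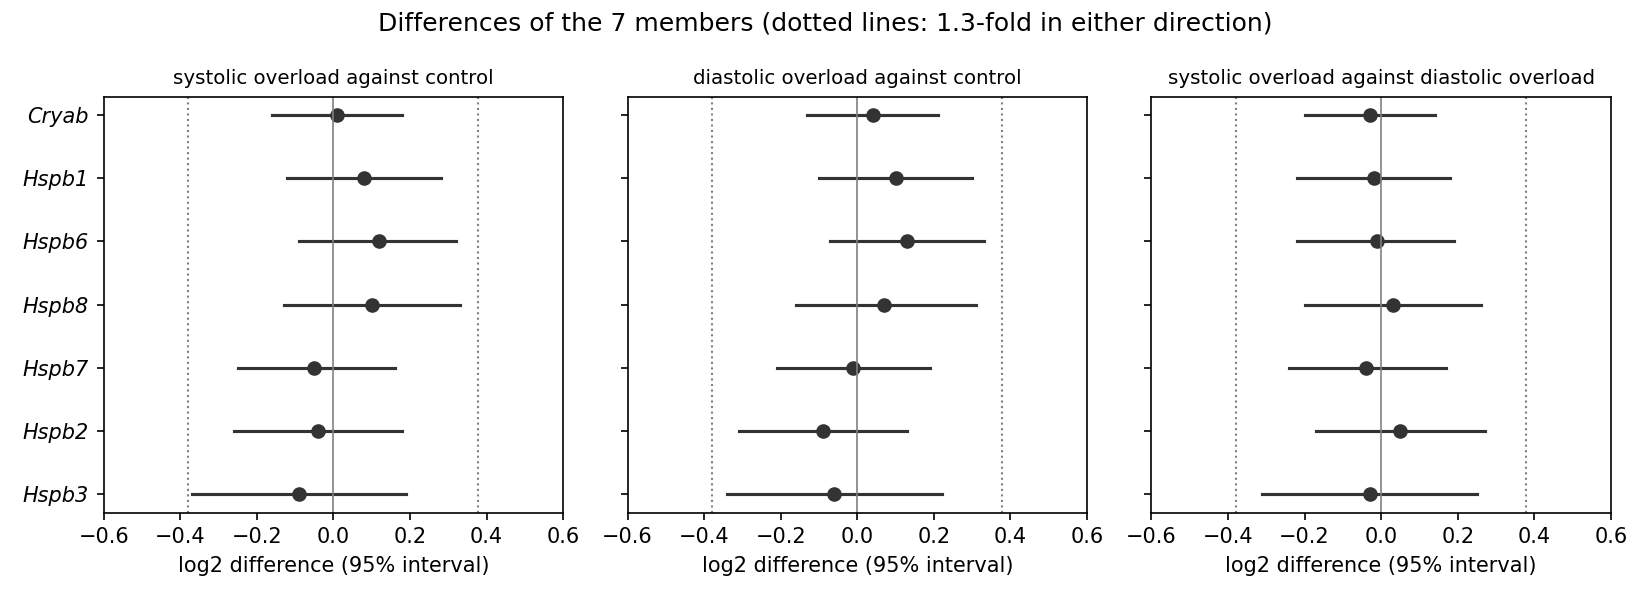
Log2 differences of the 7 members in the 3 comparisons, with points for the estimates from limma, bars for the 95% intervals, the solid line at 0 and dotted lines at 1.3-fold in either direction. All intervals cross 0 and end inside the dotted lines, and the widest in each comparison is that of Hspb3.

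Cryab, or alpha-B crystallin, which binds desmin and titin and is among the most abundant chaperones of cardiac muscle, was the most even of the members. Its level was 14.76, 14.73, 14.72 and 14.67 in the systolic hearts, 14.76, 14.66, 14.83 and 14.75 in the diastolic hearts, and 14.79, 14.66, 14.79 and 14.60 in the control hearts. The lowest of the 12 hearts was control 4 and the highest diastolic overload 3, and the ranges of the groups overlapped. The mean was 14.72 ± 0.04 in systolic, 14.75 ± 0.07 in diastolic and 14.71 ± 0.10 in control hearts (SD, n = 4 each). The log2 differences were 0.0084 (95% interval −0.16 to 0.18, limma adjusted p = 0.99) and 0.04 (−0.13 to 0.21, limma adjusted p = 0.99). All 12 hearts fell within 1.17-fold of one another.

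Hspb2, also called MKBP, a binding partner of the myotonic dystrophy kinase that forms complexes with Hspb3, overlaps Cryab in the genome but is read by a probe of its own. Its level was 10.10, 10.41, 10.12 and 10.05 in the systolic hearts, 10.04, 10.11, 10.24 and 10.07 in the diastolic hearts, and 10.15, 10.13, 10.39 and 10.17 in the control hearts. In each group 1 heart stood above the other 3, namely systolic overload 2, diastolic overload 3 and control 3. The differences from control were −0.04 (−0.26 to 0.18, limma adjusted p = 0.97) under systolic and −0.09 (−0.31 to 0.13, limma adjusted p = 0.99) under diastolic overload.

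Hspb3, the partner of Hspb2 in those complexes and a gene of striated muscle, varied most. Its level was 10.60, 10.97, 10.80 and 10.60 in the systolic hearts, 10.85, 11.03, 10.79 and 10.42 in the diastolic hearts, and 10.89, 10.88, 10.86 and 10.69 in the control hearts. The diastolic hearts held both the highest and the lowest of the 12 values, 1.53-fold apart, while 3 of 4 controls lay close together, at 10.86 to 10.89. The mean was 10.75 ± 0.18 in systolic, 10.77 ± 0.26 in diastolic and 10.83 ± 0.09 in control hearts (SD, n = 4 each). Differences from control were −0.09 (−0.37 to 0.19, limma adjusted p = 0.96) and −0.06 (−0.34 to 0.22, limma adjusted p = 0.99).

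Hspb1, known as Hsp25 in rodents and Hsp27 in humans, caps actin filaments and is phosphorylated through the p38 pathway. Its level was 14.38, 14.27, 14.65 and 14.30 in the systolic hearts, 14.45, 14.36, 14.40 and 14.48 in the diastolic hearts, and 14.25, 14.30, 14.39 and 14.34 in the control hearts. All 4 diastolic hearts were above the control mean and 3 of 4 above the highest control, whereas of the systolic hearts only the heart at 14.65 was above the highest control. The difference from control was 0.10 under diastolic overload (−0.10 to 0.30, 1.07-fold, limma adjusted p = 0.99) and 0.08 under systolic overload (−0.12 to 0.28, 1.06-fold, limma adjusted p = 0.94).

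Hspb6, or Hsp20, a target of cAMP- and cGMP-dependent kinases that binds 14-3-3 proteins once phosphorylated, had the largest differences from control among the members in both overloads. Its level was 14.68, 14.83, 14.96 and 14.72 in the systolic hearts, 14.73, 14.80, 14.87 and 14.84 in the diastolic hearts, and 14.71, 14.71, 14.82 and 14.48 in the control hearts. All 4 hearts of each overload were above the control mean, and 2 of 4 in each were above the highest control. The mean was 14.80 ± 0.13 in systolic, 14.81 ± 0.06 in diastolic and 14.68 ± 0.14 in control hearts (SD, n = 4 each). The differences were 0.12 (−0.09 to 0.32, 1.09-fold, limma adjusted p = 0.90) and 0.13 (−0.07 to 0.33, 1.09-fold, limma adjusted p = 0.95). The lowest heart was control 4, the array with the highest raw median, and without it the differences were closer to 0, at 0.05 for systolic and 0.06 for diastolic overload.

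Hspb8, or Hsp22, which joins Bag3 in the complex that hands damaged Z-disc proteins to autophagy, split the diastolic group. Its level was 13.62, 13.49, 13.55 and 13.61 in the systolic hearts, 13.34, 13.35, 13.69 and 13.75 in the diastolic hearts, and 13.32, 13.49, 13.55 and 13.49 in the control hearts. Diastolic overload 3 and 4 held the highest of the 12 values, while diastolic overload 1 and 2 lay below 3 of the 4 controls. The 4 systolic hearts were all above the control mean and 2 of them above the highest control. The differences were 0.10 (−0.13 to 0.33, limma adjusted p = 0.93) under systolic and 0.07 (−0.16 to 0.31, limma adjusted p = 0.99) under diastolic overload. Under median scaling of the arrays both turned negative, to −0.03 and −0.12.

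Hspb7, or cvHsp, a heart and muscle protein that binds filamin C, completed the set. Its level was 13.47, 13.43, 13.30 and 13.35 in the systolic hearts, 13.42, 13.40, 13.53 and 13.35 in the diastolic hearts, and 13.64, 13.30, 13.49 and 13.31 in the control hearts. Control hearts held both the highest and, within rounding, the lowest values, and the overload hearts lay between them. The differences were −0.05 (−0.25 to 0.16, limma adjusted p = 0.97) and −0.0099 (−0.21 to 0.19, limma adjusted p = 1.0).

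**Figure D2:**
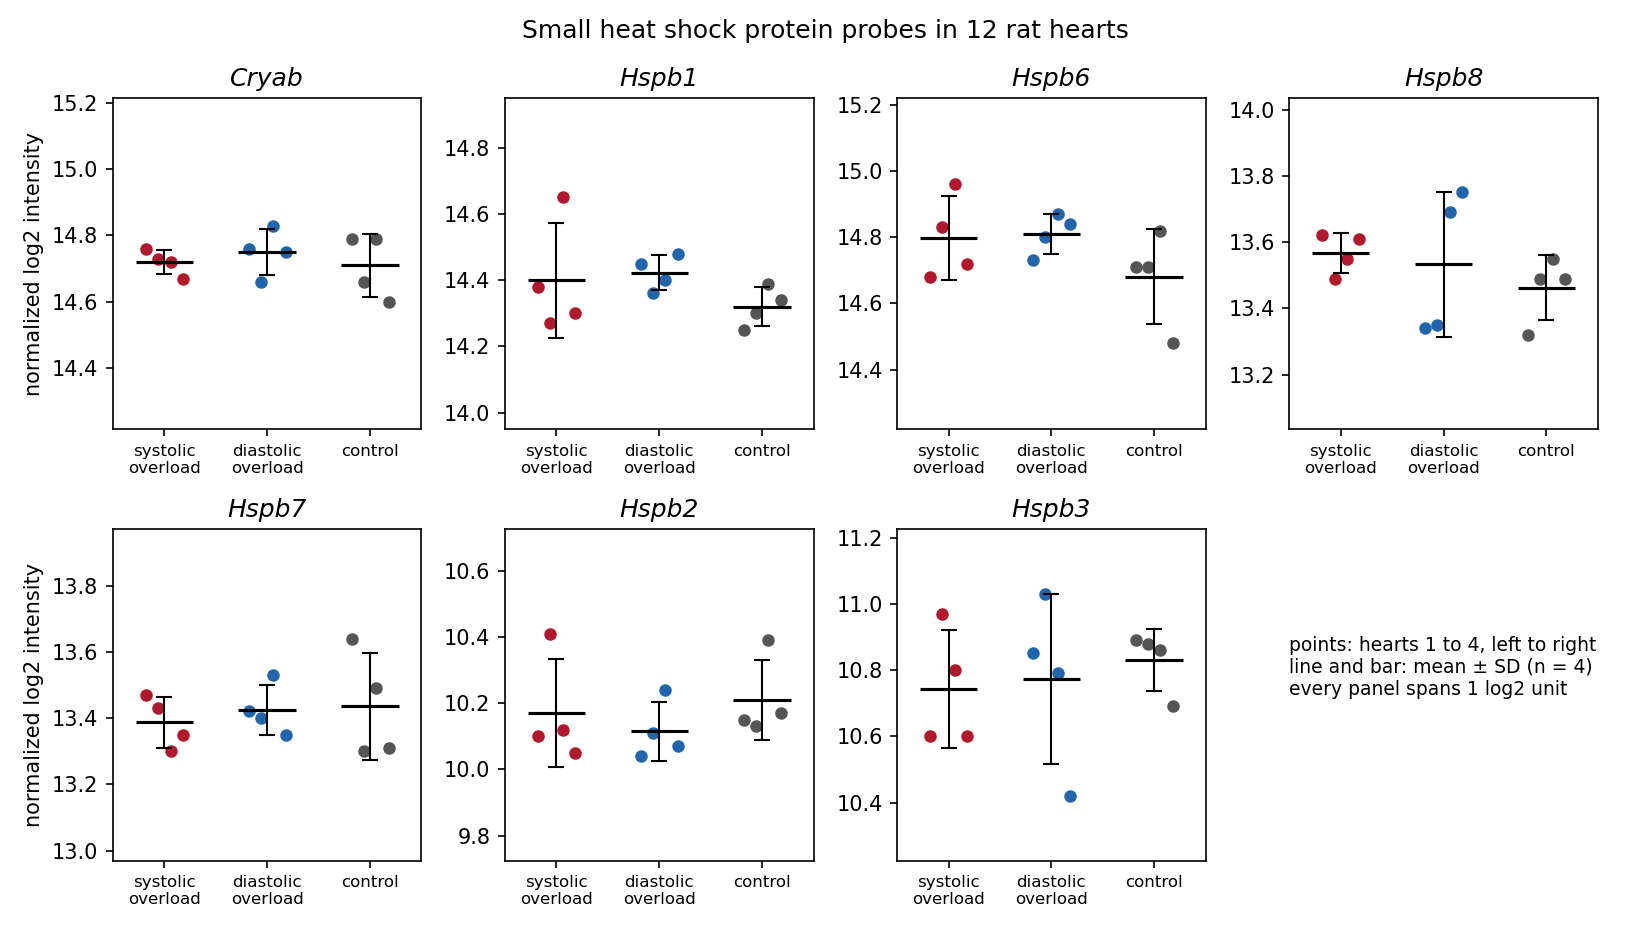
Normalized log2 intensity of each small heat shock protein in each of the 12 hearts, with 1 point per heart, horizontal lines for group means, error bars for the SD (n = 4), and every panel spanning 1 log2 unit. The 3 groups overlap in all 7 panels, with the widest scatter in Hspb3 (10.42 to 11.03) and the narrowest in Cryab (14.60 to 14.83).

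The 3 members whose windows held a heat shock match, Hspb1, Hspb6 and Hspb8, had positive differences from control in both overloads (0.07 to 0.13), and those without a match, Hspb3 and Hspb7, had negative ones (−0.09 to −0.0099). None of these differences passed the test. Hspb2 (−0.04 and −0.09) and Cryab (0.0084 and 0.04) had no window at hand and are on neither side of this split. Of all probes, 51.5% had a higher mean under systolic and 49.2% under diastolic overload. Whether the matches and the differences are related was not tested. Under median scaling the difference of Hspb8 was negative in both overloads and that of Hspb1 was −0.0089 under diastolic overload. Leaving out 1 array also turned signs, under systolic overload for Hspb1 (down to −0.0044) and Hspb7 (up to 0.02). Under diastolic overload it did so for Hspb3 and Hspb7 (up to 0.06 each). The other differences of these genes, including all of Hspb6 and Hspb8, kept their sign.

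The scaling of the arrays bears on the direction of these small differences. Median scaling moved the median of all probes to −0.17 in systolic and −0.18 in diastolic overload against control, with 18.6% and 17.5% of all probes higher, against 51.5% and 49.2% after quantile normalization. Under median scaling the bright members stayed near 0 or above it against control. Cryab stood at 0.08 in systolic and 0.04 in diastolic overload, and Hspb6 at 0.17 and 0.11. The dimmer members moved with the rest of the array. Hspb2 stood at −0.26 and −0.33, Hspb3 at −0.30 and −0.29 and Hspb7 at −0.19 and −0.22. None passed there either, with a smallest limma adjusted p of 0.43 in systolic and of 0.37 in diastolic overload among the members. Only Hspb7 in diastolic overload then reached an unadjusted p under 0.05.

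In systolic against diastolic overload, the direct comparison of the phases, limma passed 0 of 7 members and 0% of all probes, with smallest adjusted p-values of 0.99 among the members and 0.50 among all probes. At an unadjusted p under 0.05 it called 0 of 7 members and 6.32% of all probes (647). Means were higher under systolic overload for 2 members, Hspb2 (0.05) and Hspb8 (0.03), and lower for 5, against 52.2% and 47.8% of all probes. The largest of the 5 was Hspb7, at 13.39 ± 0.08 in systolic and 13.43 ± 0.08 in diastolic hearts (SD, n = 4 each), a difference of −0.04. Groups overlapped for all 7 members, and failed to overlap for 3.13% of all probes. All 7 intervals lay within 1.3-fold, as for 48.4% of all probes, and the widest reached 1.24-fold.

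The spread between hearts of a group was small for these genes, and mostly no smaller than that of other probes as bright. The residual SD within groups was under the median of all tested probes, 0.19, for 6 of 7 members, from 0.07 for Cryab to 0.14 for Hspb8, with Hspb3 at 0.19 in rounded values. Set beside the 100 probes nearest in level, only Cryab was under their median, 0.07 against 0.09, with 35 of the 100 below it. Hspb8 (0.14 against 0.09, 79 of 100 below it), Hspb3 (0.19 against 0.13, 78 below it) and Hspb6 (0.12 against 0.09, 72 below it) lay above theirs. Hspb2, at 0.13, was in the middle of its neighbours, with 51 below it.

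**Figure D3:**
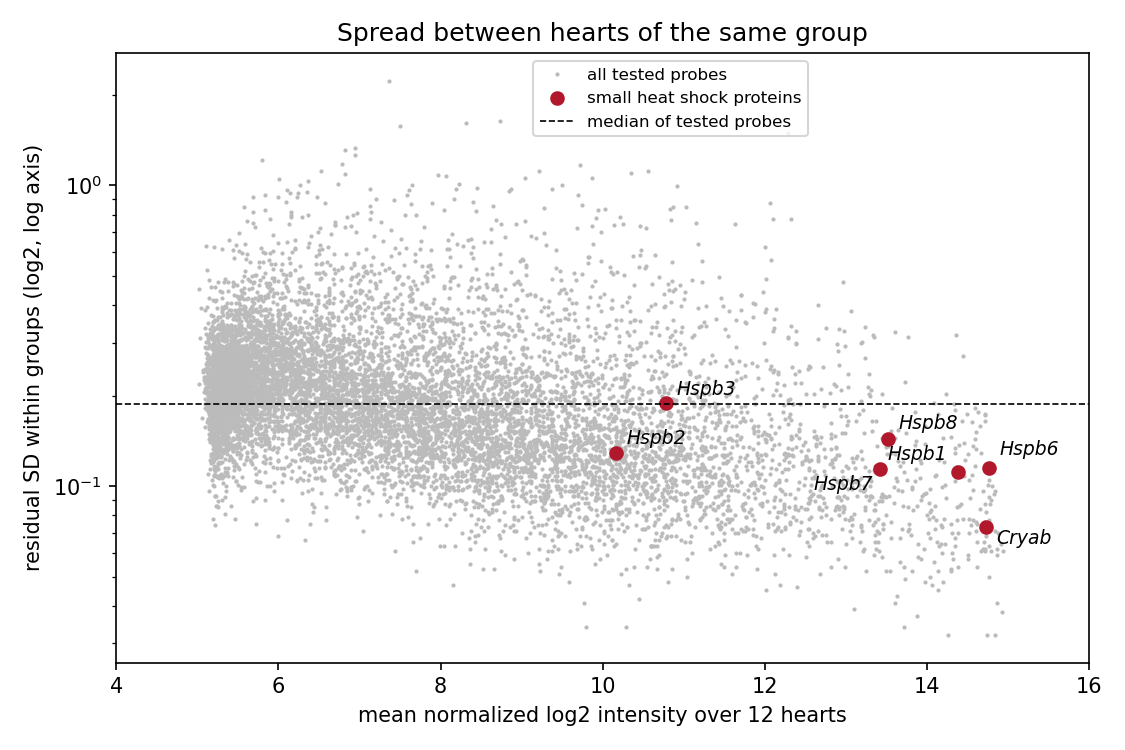
Residual SD of normalized log2 intensity within groups (vertical log axis) against the mean over 12 hearts (horizontal axis), with grey points for the 10234 tested probes, red points for the 7 members and the dashed line at the median of 0.19. The members lie toward the bright end, where grey points are lower as well, with Cryab lowest at 0.07 and Hspb3 highest at 0.19.

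In the raw intensities, before any normalization, the range over the 12 arrays was narrow for the brightest members and wide for the dimmest. The highest array was 1.24-fold above the lowest for Hspb6 (25364 to 31401), 1.25-fold for Cryab (23742 to 29751) and 1.49-fold for Hspb1 (18427 to 27416). It was 1.78-fold above the lowest for Hspb8 and 1.85-fold for Hspb7. For Hspb2 it was 2.34-fold (890 to 2084) and for Hspb3 2.63-fold (1116 to 2937), while the median over all tested probes was 1.92-fold. The highest array was control 4, which also had the highest raw median, for Hspb1, Hspb2, Hspb3, Hspb7 and Hspb8. The next highest array, control 2, stood at 1434 for Hspb2 and 2359 for Hspb3. The array medians themselves spanned 1.34-fold. Across the 12 arrays the normalized level of Cryab correlated negatively with the log2 of the array's raw median (Pearson r = −0.72, permutation p = 0.0065, adjusted 0.11 over 35 relations; Spearman rho = −0.62), with r = −0.71 without the 2 arrays of most extreme median. For Hspb6 the same r was −0.66, and −0.20 without the 2 most extreme arrays, so that it rested on those arrays. None of the 35 relations passed after adjustment. They set the 7 members against the raw median and the cardiomyocyte, smooth muscle and pericyte, endothelial and fibroblast marker levels. These measures were chosen after the data were seen, so their p-values are only a description.

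The members were also compared with each other across the 12 hearts. Of 21 pairs, 15 had a positive and 6 a negative Pearson r, with a median of 0.21, and 0 passed after Benjamini-Hochberg adjustment over the 21 by two-sided permutation. At an unadjusted p under 0.05 there were 2. Hspb7 and Cryab correlated positively (r = 0.77, permutation p = 0.0033, adjusted p = 0.056), and by ranks the pair passed (rho = 0.83, permutation p = 0.0014, adjusted p = 0.029). Leaving out the 2 hearts farthest from the median in Hspb7 gave r = 0.71. Hspb3 and Hspb8 correlated negatively (r = −0.75, permutation p = 0.0053, adjusted p = 0.056; rho = −0.73, permutation p = 0.009, adjusted p = 0.095), and the r was −0.57 (permutation p = 0.083) without the 2 hearts farthest from the median in Hspb3.

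With each group's mean removed, Hspb7 and Cryab stood at r = 0.80, and Hspb3 and Hspb8 at −0.73. The permutation adjusted p for Hspb7 and Cryab was then 0.034. That permutation did not allow for the removed group means, so this p is too small and is not read as a pass. Neither relation was kept under median scaling, where r was 0.16 for Hspb7 and Cryab and −0.12 for Hspb3 and Hspb8. Median scaling gave 2 other passing pairs, Hspb6 with Cryab (r = 0.81, permutation adjusted p = 0.021) and Hspb2 with Hspb3 (r = 0.78, permutation adjusted p = 0.032), for which quantile-normalized values gave 0.50 and 0.44. Which pairs went together thus depended on how the arrays were scaled. The chromosomal neighbours Hspb2 and Cryab showed no clear relation (r = 0.29, permutation p = 0.36, adjusted p = 0.68; rho = 0.18), with −0.38 under median scaling. Hspb1 and Hspb6 stood at r = 0.54 (permutation p = 0.075, adjusted p = 0.51), and at 0.23 without the 2 hearts farthest from the median in Hspb1.

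**Figure D4:**
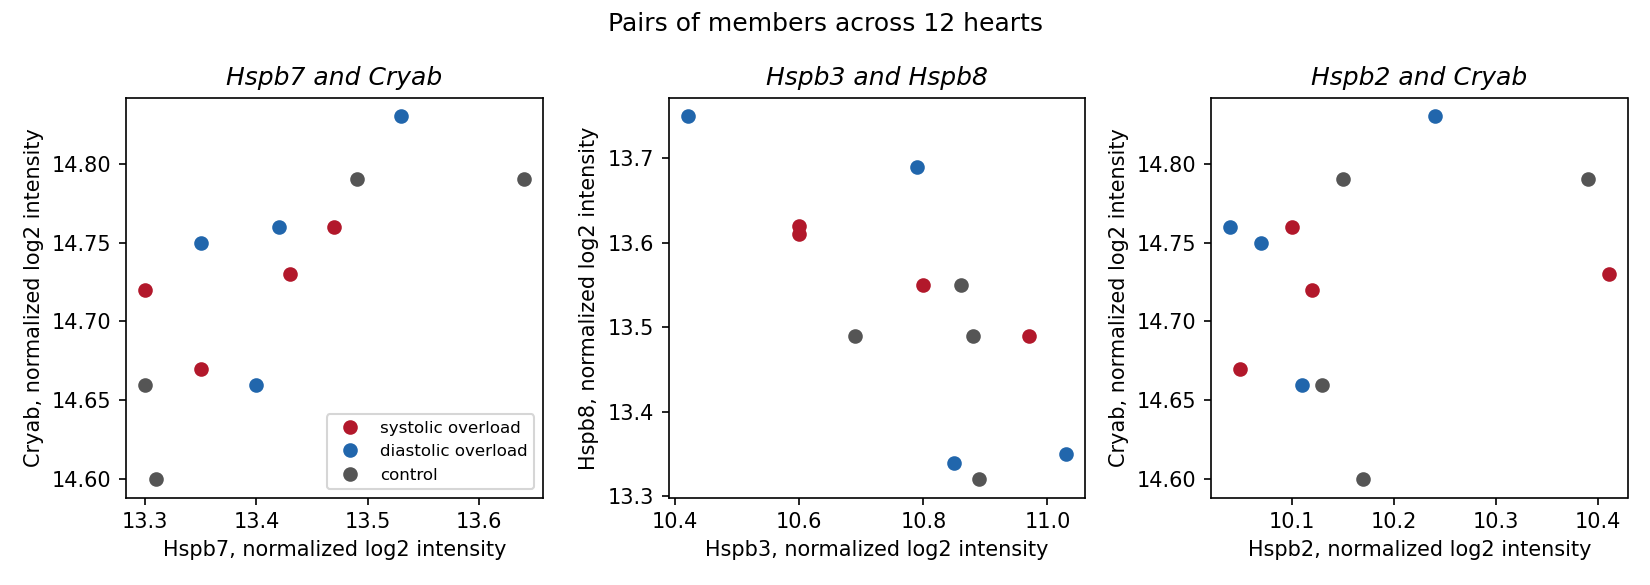
Normalized log2 intensities of 3 pairs of members, with 1 point per heart coloured by group. Hspb7 and Cryab rise together (r = 0.77), Hspb3 and Hspb8 run in opposite directions (r = −0.75), and the neighbours Hspb2 and Cryab scatter (r = 0.29), in values that are quantile normalized.

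The genes whose levels ran most like each member's over the 12 hearts were taken from 7347 named genes, and are given as a description, since all points share the same 12 arrays and their scaling. Hspb1 ran closest to Rbbp5 (r = 0.85), Slc7a1 (0.84) and Prdm2 (0.80). Hspb2 ran closest to Hes6 (0.92), Wrnip1 (0.90) and Acyp1 (0.86), and Hspb3 to Rps6ka4 (0.85), Bcl2l2 (0.83) and Pcolce (0.82). Hspb6 ran closest to Tmem214 (0.85), Mfn2 (0.84), a mitochondrial fusion protein, and Nr1h2 (0.82). Hspb7 ran closest to Abhd17a (0.88), Dexi (0.85) and Snrnp70 (0.85), and Cryab to Mok (0.90), Snrnp70 (0.90) and Usp39 (0.87), so that Snrnp70, a component of the spliceosome, was on both lists. Hspb8 ran closest to Cars2, Abra, an actin-binding protein of striated muscle, and Fbxo8 (0.88 each).

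Other members of the family were looked for as well. Hspb9 and Odf1, which are known from testis, were detected on 0 of 12 arrays, and Cryaa, the alpha-crystallin of the lens, and Hspb11 were not named on the array.

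The genes that small heat shock proteins work with were taken as 4 lists, and in no comparison did any of their members pass. Of all probes, 51.5% had a higher mean than control under systolic and 49.2% under diastolic overload. Groups did not overlap for 3.50% of all probes in systolic and 2.78% in diastolic overload against control, and 3.13% between the overloads. In that order the counts were 1, 0 and 2 of 18 genes in the chaperone list and 0 of 16 in the BAG list. They were 0, 1 and 1 for both the 17 cytoskeletal and the 21 kinase, phosphatase and 14-3-3 genes. At an unadjusted limma p under 0.05, all probes gave 5.79%, 5.49% and 6.32% in the same order. The chaperone list gave 4, 2 and 2 genes, the BAG list 0, the cytoskeletal list 1, 0 and 1, and the kinase list 2, 1 and 2. Of 18 tested genes of heat shock factors and other chaperones, 13 had a higher mean under systolic overload (median difference 0.07) and 11 under diastolic overload (0.05). Hspa1a was not named on the array, and Hspa1b and Hsph1 (detected on 0 arrays) and Hsp90ab1 (on 1) were not tested. Dnajb1, an Hsp40 co-chaperone and a typical heat shock factor 1 target, varied widely between hearts, with 9.71 ± 0.25 in systolic, 10.02 ± 0.74 in diastolic and 10.20 ± 0.92 in control hearts (SD, n = 4 each). Its differences from control were −0.48 and −0.17. Hspa2, an Hsp70 family member, stood at 7.14 ± 0.15 in systolic, 6.41 ± 0.31 in diastolic and 6.68 ± 0.41 in control hearts. Every systolic heart was above every diastolic heart (0.74, limma adjusted p = 0.64), and the difference from control under systolic overload was 0.47. Hsf2, a heat shock factor, was lower in all 4 systolic hearts, at 8.39 ± 0.17, than in any diastolic heart, at 8.91 ± 0.14 (−0.52, limma adjusted p = 0.64). The largest differences of the list under diastolic overload were those of Hspa4, an Hsp110-type chaperone (0.42), and Dnajb5 (0.32).

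Bag3, the co-chaperone that pairs with Hspb8, was even across the groups, at 13.30 ± 0.05 in systolic, 13.34 ± 0.13 in diastolic and 13.30 ± 0.11 in control hearts (SD, n = 4 each), with differences from control of −0.0011 and 0.04. Of 16 tested genes of BAG proteins and chaperone-assisted autophagy, 8 had a higher mean under systolic and 7 under diastolic overload, with medians of 0.0047 and −0.0072. Their largest differences were 0.15 for Sqstm1, the autophagy receptor p62, and −0.14 for Vps16 under systolic overload, and 0.20 for Vps18 and −0.17 for Bag6 under diastolic overload. Sqstm1 had 3 tested probes, and its other 2 gave 0.24 and −0.02.

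Of 17 tested cytoskeletal and Z-disc genes, 9 had a higher mean under systolic (median 0.02) and 11 under diastolic overload (median 0.07). Desmin (Des), the intermediate filament bound by Cryab, stood at 14.45 ± 0.07 in systolic, 14.52 ± 0.05 in diastolic and 14.58 ± 0.05 in control hearts (SD, n = 4 each), and was likewise among the brightest probes. Filamin C (Flnc), a client of the Bag3 and Hspb8 complex, stood at 11.06 ± 0.05 in systolic, 11.43 ± 0.20 in diastolic and 11.18 ± 0.29 in control hearts. All 4 systolic hearts were below all 4 diastolic hearts (−0.37, limma adjusted p = 0.73), whereas differences from control were −0.13 and 0.25. Acta1, skeletal alpha-actin, differed from control by 0.30 and 0.38, and Myot, the Z-disc protein myotilin, by 0.46 and 0.30, without passing. Pdlim5, a Z-disc adaptor, differed by 0.25 between systolic and diastolic overload.

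Of 21 tested kinases, phosphatases and 14-3-3 proteins, 11 had a higher mean under systolic and 13 under diastolic overload, with medians of 0.0021 and 0.0077. Mapkapk2, the kinase that phosphorylates Hspb1, differed from control by 0.05 and 0.0091, and Mapk14, the p38 kinase above it, by 0.01 and 0.04. Ywhag, a 14-3-3 protein, stood at 7.58 ± 0.18 in systolic, 7.97 ± 0.38 in diastolic and 7.18 ± 0.17 in control hearts (SD, n = 4 each). Every diastolic heart was above every control heart (0.78, limma adjusted p = 0.73). Ppp1cb, a catalytic subunit of protein phosphatase 1, differed from control by 0.24 under systolic overload, Mapk12 by 0.30 under diastolic overload, and Map2k6 by −0.35 between systolic and diastolic overload.

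**Figure D5:**
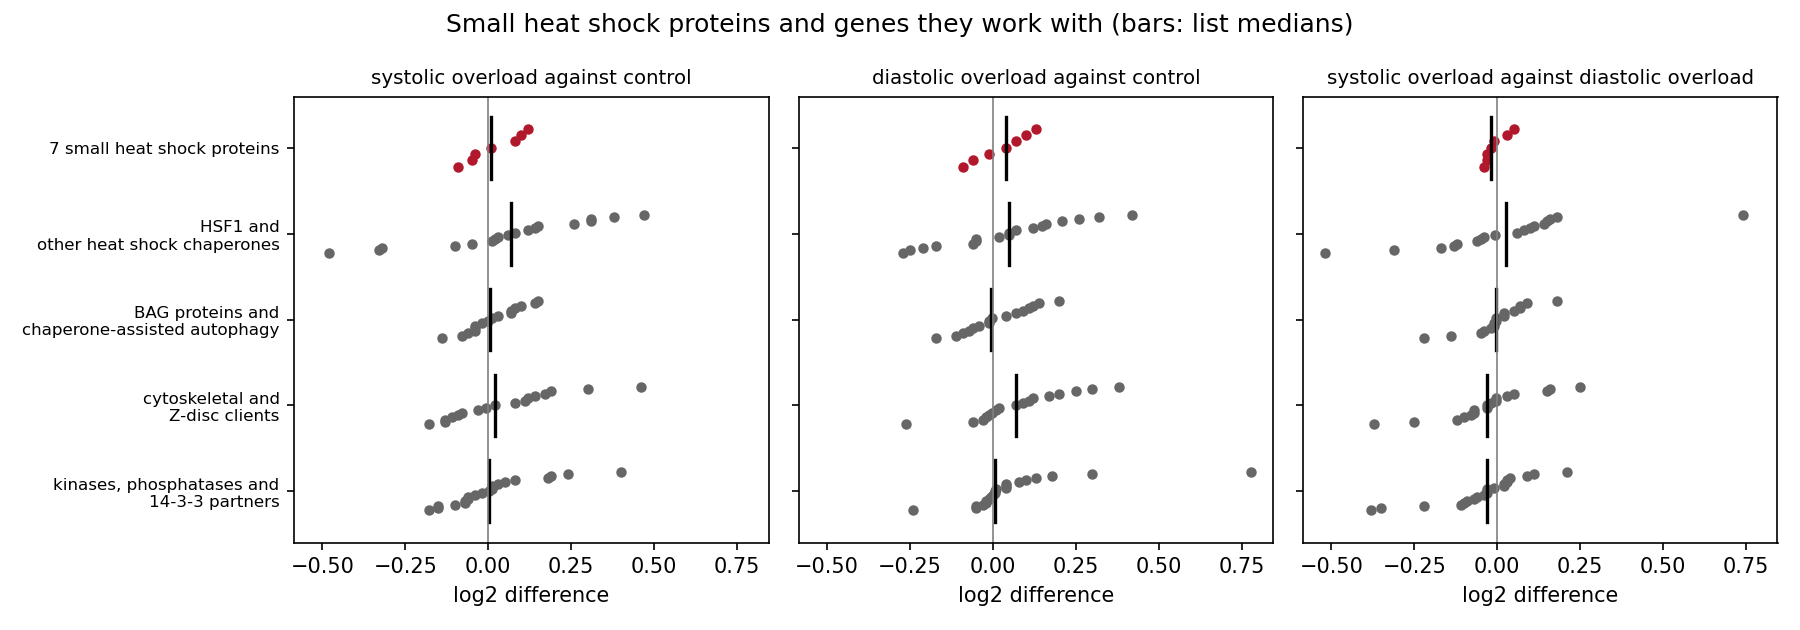
Log2 differences of the 7 members (red, top row) and of the tested genes of the 4 partner lists (grey) in the 3 comparisons, with 1 point per gene and black bars at the medians. The members span −0.09 to 0.13, a narrower stretch than any partner list, in which single genes reach −0.52 (Hsf2) and 0.78 (Ywhag). The lists hold more genes, 16 to 21 each, which widens a range, and some dimmer ones, such as Vps18 (5.67 in control hearts).

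The labelled tissue was checked by its markers. All 11 cardiomyocyte markers named on the array were detected on 12 of 12 arrays. The skeletal muscle markers Myh2, Myh4, Actn3, Myog and Pvalb were detected on 0 arrays and Tnni2 on 3. Of the 10 listed, only Tnnt3, detected on 10 arrays, and Ckm, which is also on the cardiomyocyte list, were tested. The linear intensities of the cardiomyocyte markers summed to 190405 to 197696 in systolic, 189355 to 198477 in diastolic and 169535 to 195110 in control hearts. Those of 5 smooth muscle and pericyte markers of 12 listed, cells that also hold small heat shock proteins, summed to 2640 to 3451 in systolic, 2950 to 3210 in diastolic and 2839 to 3493 in control hearts. Those of 8 endothelial markers of 12 listed summed to 3133 to 3880 in systolic, 2849 to 5140 in diastolic and 3202 to 5493 in control hearts. Those of 11 fibroblast markers summed to 21819 to 27788 in systolic, 22131 to 34117 in diastolic and 21662 to 27886 in control hearts.

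Ranges of these sums overlapped for each of these 4 lists. Means were above control for 51.5% of all probes in systolic and 49.2% in diastolic overload. Cardiomyocyte markers gave 8 of 11 (median 0.10) and 7 of 11 (0.04). Smooth muscle and pericyte markers gave 3 of 5 (0.0077) and 1 of 5 (−0.12). Endothelial markers gave 2 of 8 (−0.28) and 1 of 8 (−0.23), fibroblast markers 2 of 11 (−0.15) and 4 of 11 (−0.02). None passed, and only Emcn and Ckm had groups without overlap, both in systolic overload (3.50% of all probes). Of 7 tested macrophage and monocyte markers, 7 had higher means than in control under diastolic overload (median log2 difference 0.45). Under systolic overload it was 6 of them (0.31). Of 6 tested lymphocyte markers, 6 (0.41) and 4 (0.08) were higher under diastolic and systolic overload, against 49.2% and 51.5% of all probes. Limma passed 0 of them. At an unadjusted limma p under 0.05 there were 3 macrophage and 2 lymphocyte markers under diastolic overload, against 5.49% of all probes. Under systolic overload there were 0 of either list, against 5.79%. Markers of 1 cell type can move together, so these are not independent observations. Under diastolic overload the groups did not overlap for Adgre1, a macrophage receptor, and Cd3d, a T-cell gene, against 2.78% of all probes. The macrophage and monocyte markers summed to 3149 to 4054 in systolic, 2936 to 6730 in diastolic and 2681 to 3842 in control hearts. The 6730 was that of diastolic overload 1, and the next diastolic heart stood at 4343. The lymphocyte markers summed to 523 to 1006 in systolic, 750 to 1269 in diastolic and 589 to 1102 in control hearts. Sums of 4 atrial cardiomyocyte markers were far apart within each group, at 2197 to 10270 in systolic, 2626 to 27181 in diastolic and 5985 to 22562 in control hearts. Sums of the erythroid and of the Schwann cell and neuron markers overlapped between the groups as well. Sums of the 2 tested skeletal muscle markers, Tnnt3 and Ckm, did not overlap between systolic (27581 to 28735) and control hearts (25756 to 27065). Their diastolic sums (27057 to 28582) overlapped both.

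Over the 12 hearts Hspb6 ran with the mean cardiomyocyte marker level (r = 0.74, permutation p = 0.0065, adjusted p = 0.11 over the same 35 relations; rho = 0.61), with 0.49 without the 2 most extreme hearts. Hspb8 ran against the fibroblast marker level (r = −0.68, permutation p = 0.013, adjusted p = 0.15), with −0.46 without the 2 most extreme hearts. These relations too were chosen after the data were seen. The part of cell makeup in the levels of the members was not tested.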

How the data were processed

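Illumina bead arrays of 12 rat hearts were read as deposited. Per the file headers, the main table is not normalized and holds 1 linear intensity per probe and array. Its detection p-value columns, also deposited, set each probe against negative controls. Another deposited table holds intensity values that, judged by the values, had been quantile normalized. The software behind both tables was not stated in the labels or files. By the platform annotation, 13793 of 22523 probes had 1 gene symbol, 0 several and 8730 none; 0 symbols changed on update.

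Arrays were background corrected and quantile normalized with neqc (offset 16) in limma 3.58.1, R 4.3.3, giving log2 values. Testing was limited to probes detected (p under 0.05) on 4 or more arrays. All 12 arrays entered 1 linear model of group means, followed by contrasts and eBayes, with Benjamini-Hochberg adjustment in each of 3 contrasts. Half-widths of intervals rest on 4 hearts per group, and the median SE of a difference was 0.13. The model was tested on simulated data. For list genes with several tested probes, the brightest was taken. Correlations used 100000 permutations (NumPy 2.4.6).

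Alternatives changed the background correction, scaling, filter, offset, model and arrays used. The named genes were all members, fixed partners (Bag3, Dnajb1, Flnc, Des, Mapkapk2 and Mapk14; Hsf1 and Hspa8 were not named on the array), per partner list the passing members or else the 2 largest differences, and the 3 most correlated genes per member. Genes of the marker lists and of the wider family are named outside that rule, as are chaperones that were not tested and other values of the partner genes. The members and lists were chosen with earlier results of these data known.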

Additional observations from a re-analysis of the deposited data

Results flagged for a closer look

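Of 21 sets of 4 hearts (7 members in 3 groups), 2 held a heart far from the other 3 by Dixon's ratio of the gap to the range, which chance alone gives in about 1 in 20 groups. Hspb2 stood at 10.39 in control 3, against 10.17 in the nearest control and 10.13 in the lowest (ratio 0.841). Hspb3 stood at 10.69 in control 4, below 10.86 in the nearest control and 10.89 in the highest (ratio 0.833). Without control 3 the Hspb2 difference was 0.02 for systolic overload against control, and without control 4 Hspb3 stood at −0.13 in that comparison.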

How the results depend on the processing

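In each setting run, 0 members and 0 probes passed in the 3 comparisons. Median scaling, which moved all probes as given above, gave reversed differences in systolic overload against control for Hspb8 (−0.03), in diastolic overload against control for Hspb1 (−0.0089) and Hspb8 (−0.12), and in systolic against diastolic overload for Hspb1 (0.05), Hspb6 (0.06), Hspb7 (0.03) and Cryab (0.04). The median over the members became −0.03 in systolic overload against control, −0.12 in diastolic overload against control and 0.05 in systolic against diastolic overload. Hspb2 and Cryab then correlated at −0.38. Without control 1, control 2 and diastolic overload 1, a setting chosen after seeing the data, Hspb7 stood at 0.03 in diastolic overload against control and Hspb8 at −0.04 in systolic against diastolic overload.

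With 1 array left out in turn, systolic overload against control ran from −0.0044 to 0.12 for Hspb1, −0.12 to 0.02 for Hspb2, −0.09 to 0.02 for Hspb7, and −0.03 to 0.04 for Cryab as for the median over the members. Diastolic overload against control ran from −0.15 to 0.06 for Hspb3 and −0.05 to 0.06 for Hspb7. Systolic against diastolic overload ran from −0.11 to 0.02 for Hspb1, −0.03 to 0.09 for Hspb2, −0.14 to 0.06 for Hspb3, −0.07 to 0.03 for Hspb6 and −0.04 to 0.10 for Hspb8. The number of correlated pairs passing was 2 with median scaling and 0 with any 1 array left out. With 1 array left out, Hspb7 with Cryab ran from 0.73 to 0.81 and Hspb3 with Hspb8 from −0.82 to −0.62. With group means removed the number was 1, by the permutation p that did not allow for the removed means.

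Counts of all probes at an unadjusted limma p under 0.05 were 1198, 1369 and 333 with median scaling and 1254, 1261 and 1328 without the filter, in systolic overload against control, diastolic overload against control and systolic against diastolic overload. The normalized arrays correlated with each other at 0.984 to 0.992. To look for pairing, each probe's group mean was removed and the deviations of arrays from different groups were correlated. In these deviations same-numbered arrays correlated at −0.27 to 0.33, with 2 of 12 such pairs over 0.1. Of 12 arrays, 4 correlated best with their own number. Deviations of arrays of different groups and numbers correlated at −0.4 to 0.28. The labels do not say what the numbers mark, and correlations over whole arrays cannot exclude that they pair the hearts. With the replicate block, 0 members and 0 probes passed, and 628, 572 and 638 probes had an unadjusted limma p under 0.05. Differences of the brightest members may be understated where signals near the top of the range are compressed. The causes of the shifts between settings were not tested.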
